A study of Mus musculus with 2 samples.

Results

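The adipocyte genes described here are 10 genes known for their roles in fat cells: the adipokine genes Adipoq, Retn and Lep, the transcription factor genes Pparg and Cebpa, the lipid droplet genes Plin1 and Cidec, the fatty acid genes Fabp4 and Lpl, and the thermogenic gene Ucp1. They were chosen with earlier results of these data known, and were found by the gene name printed on the array, without a filter on signal. They are 10 of the 24323 named genes on it. They were read by 13 probes in 31 spots per array. RNA of wild-type mice was taken from tooth and from skin, with 1 array per tissue, 50 ng of RNA per labelling and a single dye (Cy3). The labels give postnatal day 0 for both tissues, while the methods of the study name a stage 1 day later. Strain, sex and the number of animals behind each RNA are not given in the labels, nor is the place on the body from which the skin was taken. The strain of the wild-type mice is named in the methods of the study only. As there was 1 array per tissue, no difference could be tested, no p-value was calculated, and the errors below are those of spots and not of animals.

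White adipocytes store triglyceride in a single large lipid droplet and release hormones, the adipokines. Their differentiation is driven by PPARγ and C/EBPα, which bind near each other at many genes of lipid storage. In the mouse, the fat layer of the skin lies under the dermis and forms around birth. Several of these genes are not confined to fat cells. Fabp4 is also known from endothelium and macrophages, Lpl from macrophages and muscle, Pparg from sebaceous glands and Cebpa from the epidermis. In bulk tissue, fewer cells of a type and less RNA per cell cannot be told apart.

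The probe sequences are shown because a reading belongs to the stretch of transcript that a probe covers, and 3 genes had 2 probes each. Each probe has 60 bases. It is printed whole where it lies in the coding sequence known for the protein, and otherwise by its middle 30 bases (bases 16 to 45). The files give no exon or coding boundaries. They give the first base of each probe in its transcript, which follows the gene name here, and its place in the mm9 build, which is given with the values. No letters are in capitals, since no motif is marked.
Adipoq, base 766: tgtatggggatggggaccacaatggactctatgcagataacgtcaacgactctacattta
Retn, base 354: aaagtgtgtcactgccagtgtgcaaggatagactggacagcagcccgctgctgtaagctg
Retn, base 520: tccacacacaagcacacatacttaaaaata
Cidec, base 552: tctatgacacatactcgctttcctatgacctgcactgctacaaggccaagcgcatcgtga
Cidec, base 1642: gtgaatggtattagagtctgcagtaaacta
Lpl, base 1340: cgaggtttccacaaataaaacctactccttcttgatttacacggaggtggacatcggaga
Lpl, base 3484: tgcaaaaccccacaagtgtagtcgtcattc
Ucp1, base 1076: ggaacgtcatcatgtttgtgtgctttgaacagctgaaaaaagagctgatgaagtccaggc
The GC content of the 13 probes ranged from 35.0% to 55.0%, around the median of 43.3% over all non-control probes. No stretch of 20 bases in any of them occurred in a probe of another gene.

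Signals are given as processed intensities, in linear units after background subtraction, with the error that the extraction software attached to the spot. The signal at the 75th percentile of probes was 428 in tooth and 276 in skin. Each log2 value was therefore taken relative to that percentile on its own array before the difference, skin minus tooth, was formed. A probe was taken as measured on an array if the software called over 50% of its spots well above background. Where only one tissue reached that call, the fold is a bound, written as at least N-fold. It was taken against the lowest signal called well above background on the dim array (18.7 in tooth and 20.8 in skin), or against the probe's own signal if that was higher. A bound holds for this scaling and background correction only, and it leaves out the error of the signals. For the 8 spike-ins that passed this call in tooth and skin alike, the median log2 difference before scaling was -0.01, and scaling to them instead shifts all differences by -0.62 (log2). As a check of the tissues, all 6 enamel and dentin genes listed were past 2-fold towards tooth, and 5 of 6 keratinocyte genes were past 2-fold towards skin.

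Of the 10 adipocyte genes, 8 were well above background in skin and 6 in tooth. Of the 9 genes measured in either tissue, 5 were measured on both arrays (Fabp4, Lpl, Pparg, Cebpa and Retn), 3 in skin only (Adipoq, Plin1 and Cidec), and 1 in tooth only (Ucp1). Lep was well above background on neither array. All 8 genes measured in skin had at least 2-fold more signal there, and none of the 9 measured genes had 2-fold more in tooth. Over the 17409 named genes measured on at least 1 array, the share past 2-fold was 14.2% towards skin and 15.5% towards tooth. At least 8-fold higher signals in skin were found for 6 of the 9 (Adipoq, Fabp4, Plin1, Cidec, Cebpa and Retn), against 4.69% of all measured genes. As the genes were chosen with earlier results of these data known, these counts and shares are descriptions and no test. The median difference of the 9 was 3.62 (log2), or 3.60 with dim values set at their bound, and that of all measured genes was -0.04, with quartiles of -0.58 and 0.47. With normexp, another background correction, the median of the 9 was 2.01. Of them, 4 were then past 8-fold towards skin, against 2.32% of all measured genes. The count of all measured genes depends on the scaling. It was 2466 for skin and 2691 for tooth here, 2020 and 3500 when arrays were shifted to their medians, and 1572 and 5648 with spike-in scaling. With spike-in scaling, 9.03% of all measured genes and 7 of the 9 adipocyte genes were past 2-fold towards skin. Past 8-fold were 3.46% of all measured genes and 4 of the 9.

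**Figure D1:**
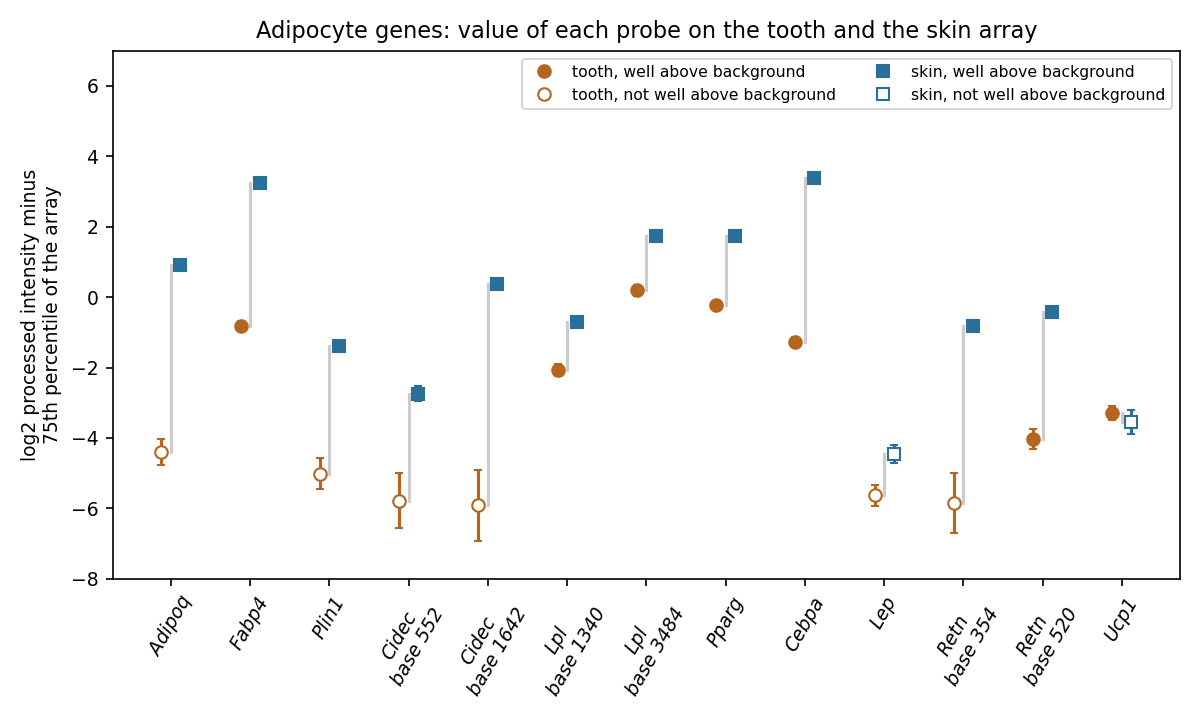
Value of each of the 13 probes on the tooth array (circles) and the skin array (squares), as log2 processed intensity relative to the 75th percentile of that array. Filled symbols were well above background and open symbols were not, grey lines join the arrays, and bars are the error given by the extraction software. Skin lies above tooth for every probe but that of Ucp1, and the Lep symbols are open on both arrays.

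Adipoq encodes adiponectin, a hormone made almost entirely by adipocytes. Its probe (mm9 chr16:23157576-23157635, plus strand) gave 20.4 ± 5.16 in tooth and 520 ± 52.2 in skin. The tooth signal was not called well above background, so the gene was at least 39.5-fold higher in skin. Here the bound equals the measured fold, since the dim signal lay just above the lowest signal called well above background on that array. The difference was 5.30 on the log2 scale, but 4.68 with spike-in scaling and 3.25 with normexp.

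Retn encodes resistin, a second hormone of mouse adipocytes, and had 2 probes whose starts lie 166 bases apart in the transcript. The probe at base 520 (mm9 chr8:3659757-3659816, plus strand) gave 26.3 ± 5.21 in tooth and 205 ± 21.1 in skin, both well above background. That was a 12.1-fold difference, 3.60 ± 0.32 on the log2 scale. The probe at base 354 (mm9 chr8:3657312-3657371, plus strand) gave 7.39 ± 4.34 in tooth, not well above background, and 158 ± 16.5 in skin, at least 13.1-fold higher. Both probes put Retn higher in skin, one with a fold of 12.1 and the other with a bound of 13.1.

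Lep encodes leptin, the hormone through which fat mass acts on appetite. Its probe (mm9 chr6:29023234-29023293, plus strand) was printed in 10 spots per array, and none of them was called well above background in either tissue. In tooth, 2 of the 10 spots were outliers to the software and were left out. The other 8 had a lowest signal of 5.54, a median of 8.77 and a highest of 14.2. In skin the 10 spots had a lowest signal of 4.77, a median of 13.7 and a highest of 23.7. These ranges overlap, and no fold is given for Lep. Negative-control spots had a median signal of 4.53 in tooth and 4.93 in skin. Leptin transcript thus did not reach the well above background call in either tissue. However, 8 of the 8 tooth spots and 8 of the 10 skin spots passed the more lenient call of signal significantly above background.

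**Figure D2:**
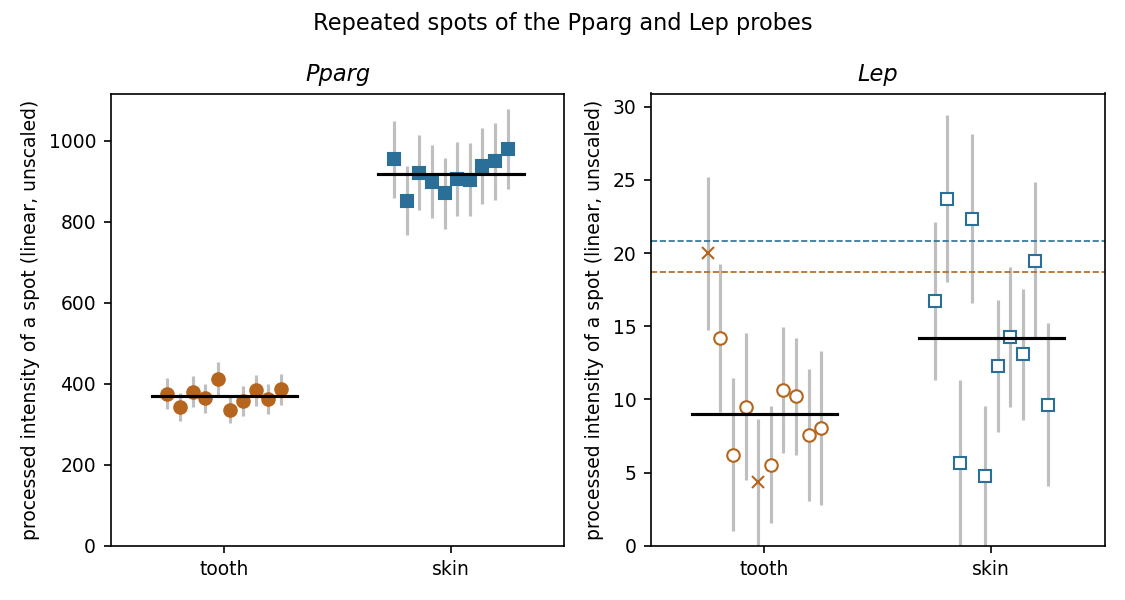
Processed intensity (linear, unscaled) of each of the 10 spots of the Pparg probe (left) and of the Lep probe (right) on the tooth array (circles) and the skin array (squares), with the error given by the software. Filled symbols were well above background, crosses are spots left out as outliers, black lines are means, and dashed lines are the lowest signal of any probe called well above background in tooth and in skin. The Pparg spots of the arrays do not overlap, whereas those of Lep do and all lie near the dashed lines or under them. The call also weighs the background noise around a spot, so single Lep spots lie above a line without being called.

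Pparg encodes PPARγ, the nuclear receptor without which adipocytes do not form. It also had 10 spots per array (mm9 chr6:115440213-115440272, plus strand), and all of them were well above background. The tooth spots ran from 336 to 412 with a median of 369, and the skin spots from 851 to 979 with a median of 913. The spots of the tissues did not overlap. The difference was 1.94 (log2), a 3.85-fold higher signal in skin, with an SD from the spots of 0.11. For this gene the error of a reading on 1 array was small, and it says nothing on the spread between animals.

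Cebpa encodes C/EBPα, the partner of PPARγ in the later steps of adipocyte differentiation. Its probe (mm9 chr7:35906517-35906576, plus strand) gave 177 ± 18.3 in tooth and 2891 ± 289 in skin, both well above background. That made it 25.4-fold higher in skin, 4.66 ± 0.21 on the log2 scale. Among the adipocyte genes measured on both arrays, this was the largest difference. Of the 15271 named genes measured on both arrays, 161 had a larger difference towards skin.

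Plin1 encodes perilipin-1, which coats the lipid droplet and controls the access of lipases to it. Its probe (mm9 chr7:86866112-86866171, minus strand) gave 13.3 ± 4.07 in tooth and 105.0 ± 11.3 in skin. Only the skin signal was well above background, and the gene was at least 8.70-fold higher there. That bound is 3.12 on the log2 scale, and the difference was lower with spike-in scaling (2.99) and with normexp (1.64).

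Cidec, also known as Fsp27, encodes a protein that enlarges lipid droplets by passing lipid from one to another. Its 2 probes start 1090 bases apart and both were well above background in skin only. The probe at base 1642 (mm9 chr6:113374630-113374689, minus strand) gave 7.09 ± 4.95 in tooth and 360 ± 36.4 in skin, at least 29.8-fold higher in skin. The probe at base 552 (mm9 chr6:113378116-113378175, minus strand) gave 7.76 ± 4.19 in tooth and 41.1 ± 6.10 in skin, at least 3.40-fold higher. Both put Cidec higher in skin. As neither tooth reading was well above background, the size of the difference is known from either probe as a bound only, and the bounds were not ranked against each other. The bound of the probe at base 1642 is 4.90 on the log2 scale. For the gene, spike-in scaling gave a difference of 5.67 and normexp a lower one of 3.01.

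Fabp4 encodes a fatty acid carrier that is one of the most abundant proteins of the adipocyte cytosol. Its probe (mm9 chr3:10204452-10204511, minus strand) gave 243 ± 24.7 in tooth and 2628 ± 263 in skin. With both signals well above background, the gene was 16.7-fold higher in skin, 4.07 ± 0.21 on the log2 scale. 225 of the genes measured on both arrays had a larger difference towards skin.

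Lpl encodes lipoprotein lipase, which frees fatty acids from circulating lipoproteins at the vessel wall. Its probe at base 3484 (mm9 chr8:71430267-71430326, plus strand) gave 488 ± 49.0 in tooth and 917 ± 91.9 in skin, a 2.91-fold difference (1.54 ± 0.20, log2). The probe at base 1340 (mm9 chr8:71425050-71425109, plus strand) gave 102 ± 11.2 in tooth and 170 ± 17.8 in skin, a 2.58-fold difference (1.37 ± 0.22, log2). The differences from the 2 Lpl probes lay 0.17 apart (log2), less than the error of either difference. Lpl had the smallest difference towards skin among the adipocyte genes. It fell under 2-fold, to 0.92, with spike-in scaling.

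Ucp1 encodes the uncoupling protein by which brown adipocytes make heat. Its probe (mm9 chr8:85821788-85821847, plus strand) gave 43.8 ± 6.29 in tooth, which was well above background, and 23.6 ± 5.42 in skin, which was not. The scaled values differed by -0.26 ± 0.39 (log2), less than the error, and no fold is given. The difference was -0.51 with a shift to the median, -0.52 with quantile normalization and -0.89 with spike-in scaling, all towards tooth. Its direction turned only with normexp background correction, which gave 0.24.

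Ordered by the difference measured on both arrays, the genes ran from Cebpa (4.66) over Fabp4 (4.07), Retn (3.60) and Pparg (1.94) to Lpl (1.54). Each gap to the next gene was larger than the combined error of the spots. The smallest margin was between Fabp4 and Retn, where the gap was 0.47 and the combined error 0.38, and their order turned when the mean of both Retn probes was used (4.32, with one tooth reading near background). The widest gap, 1.65, lay between Retn and Pparg, but with normexp these genes gave 2.01 and 1.70, and Fabp4 gave 3.64. Pparg and Lpl also had well above background signals in tooth, as did Cebpa and Fabp4, whereas the tooth signal of Retn was near the limit.

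**Figure D3:**
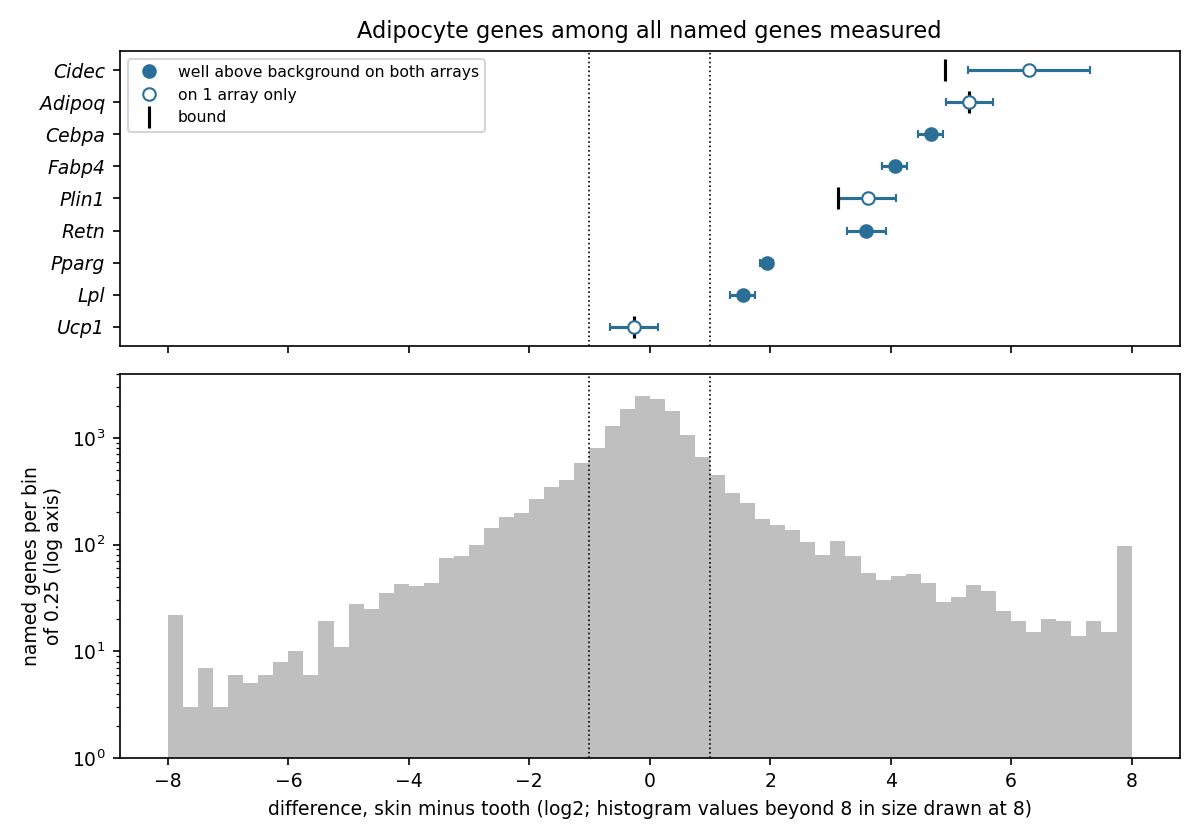
Top, difference of the 9 measured adipocyte genes (skin minus tooth, log2), filled where both arrays were well above background and open where 1 was, with bars for the error from the software (for Pparg, the SD from its spots) and a black mark at the bound. Bottom, number of the 17409 measured named genes per bin of the same difference, on a log axis, with dotted lines at 2-fold. The genes other than Ucp1 lie to the right of the 2-fold line. Their points run from 1.54 for Lpl to 6.30 for Cidec, which is known as a bound only (4.90).

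The upstream sequences of 2 genes are shown because their readings were far apart: Adipoq, at least 39.5-fold higher in skin, and Lep, well above background in neither tissue. RefSeq promoter windows of assembly GRCm38.p6 were at hand for 8 of the 10 genes, in 11 windows, and not for Fabp4 and Lpl. Only the 250 bases before the start of transcription are used. Both strands were searched for CCAAT, TTGCGCAA (a C/EBP palindrome), AGGTCA (a nuclear receptor half-site), TATAAA and GGGCGG, and matches are in capitals.
Adipoq, chr16:23146286-23146535, plus strand: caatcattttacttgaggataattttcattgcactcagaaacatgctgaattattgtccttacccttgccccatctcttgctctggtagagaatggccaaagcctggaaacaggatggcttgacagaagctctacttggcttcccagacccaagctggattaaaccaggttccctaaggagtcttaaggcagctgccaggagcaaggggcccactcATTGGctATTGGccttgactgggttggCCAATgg
Lep, chr6:29059971-29060220, plus strand: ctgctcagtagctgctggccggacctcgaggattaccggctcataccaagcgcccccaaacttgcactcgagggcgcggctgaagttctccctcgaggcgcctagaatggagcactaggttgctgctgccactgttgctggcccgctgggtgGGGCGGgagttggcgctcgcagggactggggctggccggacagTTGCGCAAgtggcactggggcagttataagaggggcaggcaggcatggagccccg
The Adipoq window held CCAAT 3 times, at -34 and -27 on the opposite strand and at -7, counted from the start of transcription. The Lep window held the C/EBP palindrome at -55 and GGGCGG at -98. Over all 32851 windows of this length, 33.8% held CCAAT, 0.164% TTGCGCAA, 14.0% AGGTCA, 12.4% TATAAA and 32.7% GGGCGG. Counted by window like these shares, 3 of the 11 held CCAAT, 3 AGGTCA, 3 GGGCGG, 2 TATAAA and 1 TTGCGCAA. Counted by gene, over all windows of a gene, 2 of the 8 held CCAAT (Adipoq and Pparg) and 2 AGGTCA (Pparg and Ucp1). TATAAA was held by 2 (Cebpa and Pparg), GGGCGG by 2 (Lep and Pparg) and TTGCGCAA by 1 (Lep). The windows of Cidec, Plin1 and Retn held none of these letters, and no motif was found in more than 2 of the 8 genes. A match is a description of the letters only.

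The rest of the adipocyte pathway was followed in lists of other genes, for which counts and medians are descriptions against the 14.2% and 15.5% of all measured genes. Among 12 other transcription factors of adipogenesis, all measured, 4 were past 2-fold towards skin and none towards tooth. The 4 were Cebpb (2.31, log2), which acts early in adipogenesis, Klf5 (1.92), Ebf1 (1.49) and Stat5a (1.03). The median was 0.41, and it changed sign to -0.21 with spike-in scaling. Of 10 preadipocyte genes and inhibitors of adipogenesis, 3 were past 2-fold towards skin and 6 towards tooth, with a median of -1.09. Higher in skin were Gata3 (7.75), a transcription factor also known from epidermis and hair follicle, the Wnt ligand gene Wnt10b (2.70) and the stem cell antigen gene Ly6a (2.62). Higher in tooth were Nr2f2 (-2.76), the secreted Wnt inhibitor gene Sfrp4 (-2.70), and the PDGF receptor genes Pdgfrb (-2.61) and Pdgfra (-2.43), which mark mesenchymal cells in general.

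The lists of lipid storage had medians towards skin, which became smaller with spike-in scaling (0.46 for lipid droplet genes, 0.39 for lipolysis and 0.29 for fatty acid synthesis, where 2 genes stayed past 2-fold). Of 10 other lipid droplet genes, 6 were past 2-fold towards skin and none towards tooth (median 1.08). Among those measured on both arrays, the largest differences were those of Cidea (7.32), a relative of Cidec that is also known from sebaceous glands, Plin4 (3.78), the lipase co-activator gene Abhd5 (1.80) and Plin2 (1.11). Of 8 lipolysis genes, 7 were measured, with 4 past 2-fold towards skin and 1 towards tooth (median 1.02). The genes on the side of skin included Pnpla3 (4.74), the monoglyceride lipase gene Mgll (2.30) and Pnpla2 (1.02), and the phosphodiesterase gene Pde3b gave -1.38, a call that was lost when the mean of its probes was used. Adrb3, the β-adrenergic receptor typical of adipocytes, was well above background in neither tissue. Of 10 fatty acid synthesis genes, 9 were measured, with 4 past 2-fold towards skin and none towards tooth (median 0.91). The 4 were Acacb (2.52), Scd1 (1.60), Elovl6 (1.57) and Pck1, at least 6.68-fold higher, which supplies glycerol for triglyceride in fat.

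Fatty acid uptake and triglyceride synthesis was split. Of 13 genes, 5 were at least 2-fold higher in skin, among them Dgat2 (4.38), which completes triglyceride synthesis, Acsl1 (3.26), the fatty acid transporter gene Cd36 (3.24) and Gpd1 (3.23). The other 3 past 2-fold were Gpihbp1 (-1.21), Lpin1 (-1.13) and Lmf1 (-1.07), on the side of tooth. With the mean of probes only Gpihbp1 stayed past 2-fold there, and the other Lmf1 probe gave -0.54. GPIHBP1 holds lipoprotein lipase on capillaries and LMF1 helps it to fold. The median of 0.06 changed sign to -0.18 with a shift to the median and to -0.56 with spike-in scaling.

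Among 7 genes of insulin-responsive glucose uptake, 2 were past 2-fold towards skin, among them Cav1 (2.38), and 1 towards tooth, Irs2 (-1.35), and the difference of the glucose transporter gene Slc2a4 was 0.06. The median was 0.34, and -0.28 with spike-in scaling. Of 12 other adipokines and adipokine receptors, 11 were measured, with 2 past 2-fold in each direction (median 0.39, and -0.23 with spike-in scaling). Cfd, which encodes adipsin, a complement factor secreted by adipocytes, had an at least 63.9-fold higher signal in skin, and the adiponectin-binding cadherin gene Cdh13 gave 1.23, which was under 2-fold with the mean of its probes. The apelin gene Apln had an at least 17.6-fold higher signal in tooth, and its receptor gene Aplnr gave -2.24. The leptin receptor gene Lepr gave 0.59, and the adiponectin receptor genes Adipor1 and Adipor2 gave 0.15 and 0.80.

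Brown fat genes other than Ucp1 differed in both directions. Of 16 genes known from brown or beige fat, 5 were past 2-fold towards skin and 6 towards tooth, with a median of -0.36. The count for tooth was 5 with dim values at their bound, 2 among genes measured on both arrays and 1 with normexp. On the side of skin were Cidea (7.32), the muscle and brown fat cytochrome oxidase gene Cox8b (3.27), Cpt1b (1.01) and Elovl3 (at least 133.8-fold), also known from sebaceous glands and hair follicles. On the side of tooth were Ppargc1a (-2.69), the main co-activator of Ucp1, Kcnk3 (-1.52), Otop1 (at least 2.63-fold) and Prdm16 (at least 2.57-fold higher), a determinant of brown fat identity. Cidea stands in this list and in that of lipid droplet genes.

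**Figure D4:**
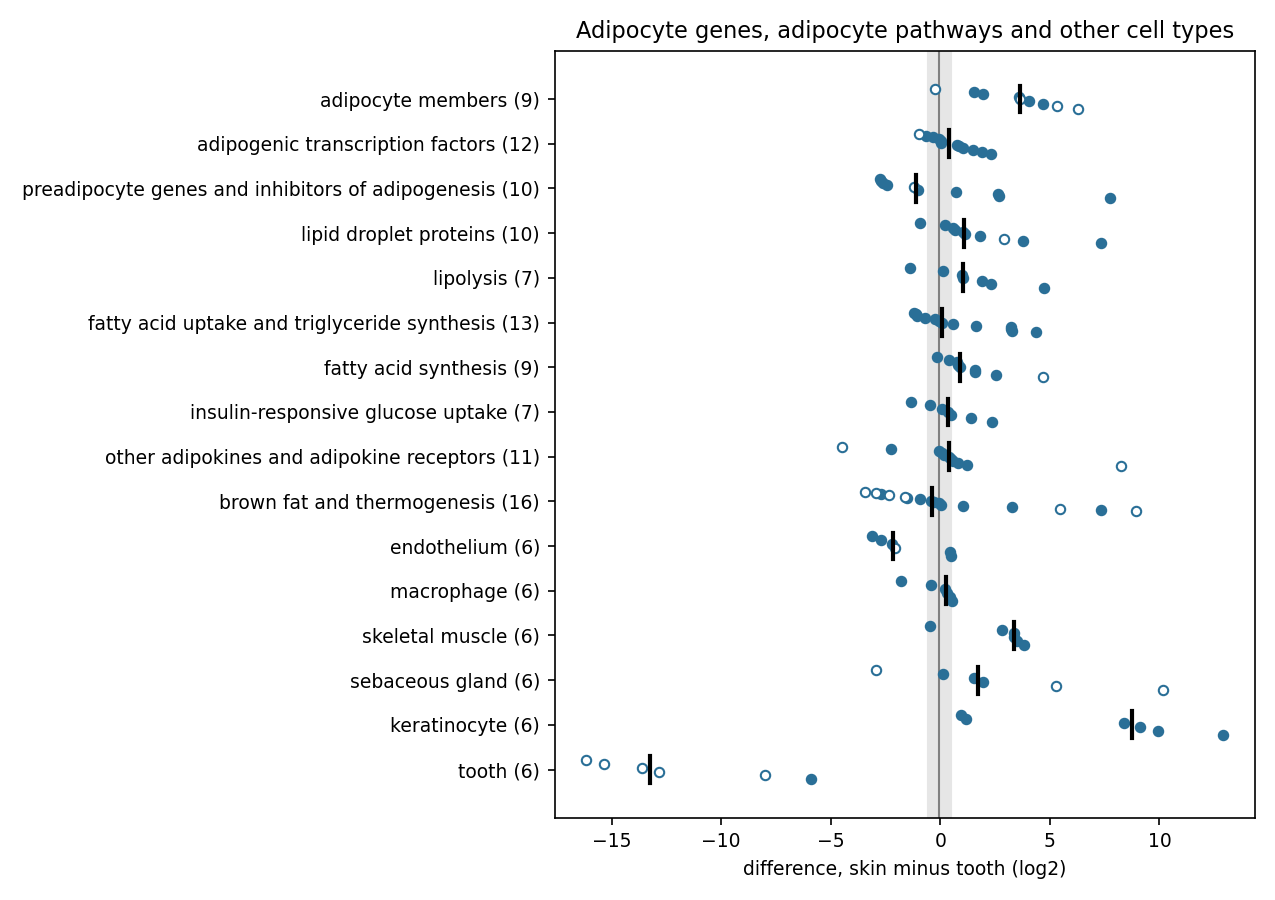
Difference (skin minus tooth, log2) of each measured gene in the adipocyte list, in the lists of the adipocyte pathway and in marker lists of other cell types, with the number measured in parentheses. Filled points were well above background on both arrays, open points on 1, black bars are list medians, and the grey band and line are the quartiles and median of all measured genes. The median of the adipocyte genes, 3.62, lies above those of the pathway lists, which run from -1.09 to 1.08.

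Markers of other cell types that the tissues hold differed as well. Their summed scaled signal, in units of the 75th percentile signal of the array, was 9.21 in tooth and 88.4 in skin over 6 skeletal muscle genes, 5 of them past 2-fold towards skin. It was 1.34 in tooth and 16.0 in skin over 6 sebaceous gland genes, 4 of them past 2-fold towards skin and 1 towards tooth, and 528 and 4783 over 6 keratinocyte genes. Over the 10 adipocyte genes it was 3.26 in tooth and 31.1 in skin. For 6 endothelial genes, which matter for Fabp4 and Cd36, it was 32.3 in tooth and 38.4 in skin. Most of that sum came from Kdr, whose 2 probes gave differences of 0.43 and -2.19. None of the 6 was past 2-fold towards skin, and 4 were towards tooth. For 6 macrophage genes the sum was 28.1 in tooth and 19.5 in skin, with none past 2-fold towards skin and 1 towards tooth. A few bright genes gave most of several of these sums. Over the adipocyte genes in skin, Cebpa gave 10.5 and Fabp4 9.52, whereas Adipoq gave 1.88. Most of the skin sum came from Fa2h for the sebaceous genes, from Myh8 for muscle and from Csf1r for macrophages. Of the sebaceous genes, Fa2h was at least 290.4-fold and Awat2 at least 9.53-fold higher in skin, and Mogat2 was at least 4.66-fold higher in tooth. Of the muscle genes, Tnnt3 (3.82) and Myh8 (3.49) had the largest differences. The part of muscle, gland and epidermis in the signals of Pparg, Cebpa, Lpl and the lipid genes was not tested. In tooth, 4 of the 10 adipocyte genes (Adipoq, Plin1, Cidec and Lep) were not well above background, while Retn and Ucp1 were, and in skin only Lep and Ucp1 were not.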

How the data were processed

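The data were 2 Agilent one-colour arrays, 1 of tooth and 1 of skin, on the same slide. Per the file headers, the deposited intensities came from Feature Extraction 10.7.3.1, which subtracted background, removed trends within the array and replaced very dim values by surrogates (22.8% of non-control spots in tooth, 25.5% in skin). The authors also deposited a ratio of each intensity to 1 factor per array, used as an alternative. Outlier spots were removed (137 and 146, of 59305 non-control spots), spots of a probe were averaged as log2, and the 75th percentile was subtracted. The probe with the highest mean stood for a gene. Names came from array accessions matched to RefSeq (82.1% of named probes). The error given by the software is per spot, and the scatter between repeated spots gave a difference an SD of 0.12 (log2). The number of arrays limits the precision, and no test was run. Probe coordinates are mm9, and promoters are GRCm38.p6. The adipocyte genes and all lists were chosen with earlier results of these data known. From every list other than the adipocyte genes, up to 4 genes per direction were named, by the difference measured on both arrays and then by the bound. Adrb3, Slc2a4, Adipor1 and Kdr were named outside this rule, after their values were seen. Some genes of the lists are counted but not reported here by name. The scripts were tested on simulated data. Python 3.11.15, pandas 2.3.3, numpy 2.4.6, R 4.3.3 and limma 3.58.1 (normexp only) were used.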

Additional observations from a re-analysis of the deposited data

How the results depend on the processing

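The 8 adipocyte genes measured in skin kept their direction under every alternative that gave them a value. The median of the 9 measured genes, 3.62, became 3.37 with a shift to the median, 3.43 with quantile normalization, 2.99 with spike-in scaling, 2.01 with normexp (offset 50) and 4.07 with the mean of all probes. With genes measured on both arrays only, 5 adipocyte genes were left. All 5 were at least 2-fold and 3 at least 8-fold higher in skin, against 11.4% and 2.68% of all such genes. Over all named genes, spike-in scaling gave 1572 for skin and 5648 for tooth, and normexp gave 1672 for tooth. Without a filter on dim probes, or with the more lenient call, Lep counted as well, making 9 of 10. Among all named genes, 3676 (15.1%) or 3675 (17.3%) were then at least 2-fold higher in skin. Signs turned for Ucp1 with normexp (0.24), and for list medians with spike-in scaling (transcription factors -0.21, fatty acid uptake -0.56, glucose uptake -0.28, other adipokines -0.23, macrophage -0.36) and with a shift to the median (fatty acid uptake -0.18). Normexp left 2 lipolysis genes past 2-fold towards skin and 4 preadipocyte genes towards tooth. The cause was not tested. Values from the deposited ratio table gave a median of 3.63. No paired analysis was possible because there was 1 array per tissue, and for the same reason no replicate could be left out and a slide term had nothing to separate. Signals near background, such as those of Lep, Ucp1 and the tooth readings of Adipoq, Plin1 and Cidec, limit what can be ordered.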
